A study of Mus musculus with 10 samples.

Results

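Rnf144a and Rnf144b encode the 2 RNF144 ubiquitin ligases, and were taken by their gene names from the 54532 genes of a table of lung RNA levels on postnatal day 30 (P30). Rnf144a was chosen on the values of these same samples, for a small rise that every lung showed. Its difference between the groups is therefore given as a description, with no test. Rnf144b came in by its name as the closest relative. The study compared 5 lungs with increased pulmonary flow (IPF) with 5 sham lungs, all from wild-type (WT) C57BL/6J mice. IPF pups had fistula surgery at P7, in which the abdominal aorta was opened by needle into the inferior vena cava. Sham pups had the same operation without that puncture, and RNA came from whole lung. Litters and animals are not named in the labels, so p-values measure only the spread between these samples, which may be technical.

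Ubiquitin ligases of the RING-between-RING (RBR) class take ubiquitin from an E2 enzyme onto a cysteine of their own before passing it to a substrate. RNF144A is known for tagging proteins of DNA repair, among them the kinase DNA-PKcs and PARP1, and the innate immune adaptor STING. RNF144B is known for tagging the cell cycle inhibitor p21 and the death factor BAX, and both ligases have been described as targets of the tumour suppressor p53.

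Rnf144a (ENSMUSG00000020642) lies on the minus strand of mouse chromosome 12, from 26300964 to 26415254 in build GRCm38. Rnf144b (ENSMUSG00000038068) lies on the plus strand of chromosome 13, from 47122656 to 47247991. Both are protein-coding genes. The start regions of both are shown because Rsad2 and Cmpk2, which lie beside Rnf144a, are interferon-stimulated, and some of the genes most like Rnf144a (Arntl, Npas2 and Nfil3) are clock genes, and both kinds have known DNA motifs. Each sequence is a RefSeq start window on build GRCm38.p6, from 250 bases before to 50 bases after the start, 5′ to 3′ on the gene's own strand. Rnf144a has 1 window, chr12:26415213-26415512 on the minus strand. Rnf144b has 2 windows on the plus strand, chr13:47122470-47122769 and chr13:47193753-47194052. The fourth window, chr12:26456403-26456702 on the minus strand, is that of Rsad2, an antiviral gene beside Rnf144a, and the fifth, chr12:26468965-26469264 on the plus strand, is that of the next gene, Cmpk2. Capitals mark a GC box (GGGCGG) in Rnf144a and in the second Rnf144b window, and the reverse complement of an interferon-stimulated response element (ISRE) core (GAAANNGAA) in Rsad2.
Rnf144a: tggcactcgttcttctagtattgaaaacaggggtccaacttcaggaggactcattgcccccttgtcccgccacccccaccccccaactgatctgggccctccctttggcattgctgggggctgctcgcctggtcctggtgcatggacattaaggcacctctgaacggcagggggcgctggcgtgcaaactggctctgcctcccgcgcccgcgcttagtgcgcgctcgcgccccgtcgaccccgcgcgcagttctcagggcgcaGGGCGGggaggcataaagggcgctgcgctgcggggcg
Rnf144b first window: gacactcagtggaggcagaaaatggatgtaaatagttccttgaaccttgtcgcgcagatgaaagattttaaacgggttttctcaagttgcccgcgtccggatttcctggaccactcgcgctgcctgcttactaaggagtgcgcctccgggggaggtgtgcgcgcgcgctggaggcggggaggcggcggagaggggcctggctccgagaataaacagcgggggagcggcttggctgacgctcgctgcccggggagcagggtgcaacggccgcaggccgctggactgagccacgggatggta
Rnf144b second window: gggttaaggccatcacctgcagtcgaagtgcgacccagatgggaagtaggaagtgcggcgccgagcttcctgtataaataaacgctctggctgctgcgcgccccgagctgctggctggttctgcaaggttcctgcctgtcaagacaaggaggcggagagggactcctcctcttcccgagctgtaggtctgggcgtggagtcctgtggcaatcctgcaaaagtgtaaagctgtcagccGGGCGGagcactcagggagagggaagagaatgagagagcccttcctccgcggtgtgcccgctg
Rsad2: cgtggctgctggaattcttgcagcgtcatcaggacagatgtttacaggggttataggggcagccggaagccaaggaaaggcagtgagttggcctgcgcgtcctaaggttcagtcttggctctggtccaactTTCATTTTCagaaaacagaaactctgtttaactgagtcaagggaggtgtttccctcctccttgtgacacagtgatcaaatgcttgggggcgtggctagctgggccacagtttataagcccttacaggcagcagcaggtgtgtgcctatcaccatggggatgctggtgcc
Cmpk2: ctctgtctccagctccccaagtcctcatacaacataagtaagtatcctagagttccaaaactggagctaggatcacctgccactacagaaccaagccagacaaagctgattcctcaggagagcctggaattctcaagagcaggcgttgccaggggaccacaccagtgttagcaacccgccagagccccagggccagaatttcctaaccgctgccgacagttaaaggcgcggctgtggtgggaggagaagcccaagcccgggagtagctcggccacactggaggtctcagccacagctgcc
The Rnf144a window was 67.0% G and C and held 25 CpG, and the first and second Rnf144b windows were 62.7% and 60.7% with 27 and 17 CpG. The medians over 32851 mouse windows were 52.7% and 7 CpG. Rsad2 stood at 53% and 6 CpG, and Cmpk2 at 57% and 8 CpG.

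Motifs were searched on both strands, and the motifs were chosen after the expression values were seen. The clock motifs were the E-box CACGTG, the D-box as TTATGTAA or TTACGTAA, and the core of the ROR element, TAGGTCA. None of these, and no ISRE core, was found in the 3 windows of Rnf144a and Rnf144b, which says only that these letters are not there. Over all windows the E-box was found in 7.15%, the D-box forms in 0.938% and 0.119%, the ROR core in 2.61% and the ISRE core in 8.56%. The Rsad2 window held its ISRE core 119 bases before the start, and the Cmpk2 window held none. The GC box began 13 bases after the start in Rnf144a and 13 bases before it in the second Rnf144b window, and 35.7% of all windows had one.

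Rnf144a was higher in every IPF lung than in any sham lung. In IPF replicates 1 to 5 it stood at 61.5, 56.5, 57.9, 53.2 and 50.2 FPKM (fragments scaled to gene length and library size). In sham replicates 1 to 5 it stood at 30.4, 30.1, 29.6, 31.4 and 29.3 FPKM. The groups did not overlap, and 18.8 FPKM separated the lowest IPF lung from the highest sham lung. The means were 55.9 ± 4.38 FPKM in IPF and 30.2 ± 0.801 FPKM in sham (SD, n = 5 each), a ratio of 1.85. On the log2(FPKM + 0.1) scale the difference was 0.88 with an SE of 0.06, under the limit of 1 that the study's methods set for a changed gene. In all, 3.71% of the 20448 genes tested were called higher in IPF, and 4.52% had every IPF lung above every sham lung. Rnf144a was picked on this contrast, so nothing is read from its place among them.

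The evenness of the values was part of the choice of Rnf144a, so its spread is likewise a description. The coefficient of variation of Rnf144a was 2.66% in sham, where the median of 12984 autosomal genes with a mean of at least 1 FPKM was 10.5%. In IPF it was 7.84%, where that median was 10.7%. Counting alone gives 1.65% in sham and 1.17% in IPF, from 3284 to 3966 reads in a sham lung and from 6513 to 8040 in an IPF lung. The sham spread was thus 1.60 times the counting error, and the IPF spread 6.68 times. Within the IPF group, replicate 1 was the highest and replicate 5 the lowest.

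Rnf144b showed no difference beyond the spread between lungs. It stood at 12.4, 14.0, 11.8, 13.0 and 11.9 FPKM in IPF replicates 1 to 5. In sham replicates 1 to 5 it stood at 12.9, 11.9, 12.6, 11.4 and 13.1 FPKM. The groups overlapped, with 1 IPF lung above all sham lungs. The means were 12.6 ± 0.909 and 12.4 ± 0.713 FPKM (SD, n = 5 each). The log2 difference was 0.02 with an SE of 0.06, and its 95% interval ran from -0.12 to 0.16. It did not pass the test, with an adjusted p of 0.891 by limma over 20448 genes. An exact two-sided permutation test on the 5 against 5 lungs gave p = 0.714, where 0.00794 is the smallest it can give.

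**Figure D1:**
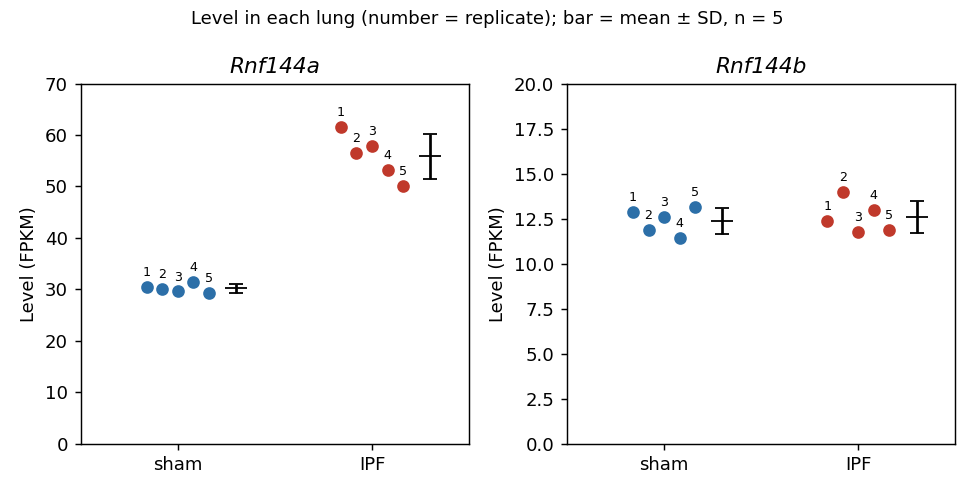
Level of Rnf144a and Rnf144b in FPKM (vertical axes, from 0) in each sham and IPF lung, numbered by replicate, with mean ± SD (n = 5) beside the points. Rnf144a lies between 50.2 and 61.5 FPKM in IPF and between 29.3 and 31.4 FPKM in sham, while the Rnf144b groups overlap.

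The 2 genes showed no shared pattern over all lungs. Over the 10 lungs their log2 levels had a Pearson r of 0.12 and a Spearman rho of -0.14, and r was -0.09 after each group's mean was removed. Within the 5 IPF lungs r was 0.09, and within the 5 sham lungs, where Rnf144a hardly varied, it was -0.78. The ratio of Rnf144a to Rnf144b FPKM ran from 2.23 to 2.75 in sham, with a median of 2.37. In IPF it ran from 4.05 to 4.97, with a median of 4.23. The ratios did not overlap between the groups, while Rnf144b lay within 11.4 to 14.0 FPKM in all 10 lungs.

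Among the 14 RBR ligases in the table, compared per length as mean FPKM, Rnf144a was the most abundant in both groups. It made up 15.5% of the family's summed FPKM in sham and 25.0% in IPF. In sham its lead was within the spread, since its range lay inside the 26.2 to 34.3 FPKM of Rnf14, a ligase known as a coactivator of the androgen receptor. In IPF the highest Rnf14 lung, at 34.4 FPKM, lay below the lowest Rnf144a lung. After these came Rnf19a and Rbck1, a subunit of the linear ubiquitin complex, with means of 25.0 and 23.2 FPKM over the 10 lungs and overlapping ranges. Arih1 and Rnf19b followed at 17.7 and 16.9 FPKM. Rnf144b was the seventh at 12.5 FPKM. Its range overlapped that of the next ligase, Rnf216, in both groups, and lay below that of Rnf19b in both.

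None of the other 12 RBR ligases passed the limma test, at a background of 3.71% of all genes called higher and 2.14% called lower. At an unadjusted p under 0.05 there was 1, and limma-voom on recovered reads called 0. Of the 12, 6 had a positive and 6 a negative difference, with a median of -0.02 on the log2 scale against 0.0016 for all genes tested. The highest was Rnf19b, at 17.9 ± 1.03 FPKM in IPF and 16.0 ± 0.883 FPKM in sham (SD, n = 5 each). Its groups did not overlap, but its log2 difference of 0.17 had an adjusted p of 0.136. The lowest was Arih2, a ligase of cullin complexes, at -0.15 with an adjusted p of 0.291. The summed FPKM of the 12 ligases ran from 147.8 to 159.9 in IPF and from 146.5 to 159.2 in sham, nearly the same range.

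**Figure D2:**
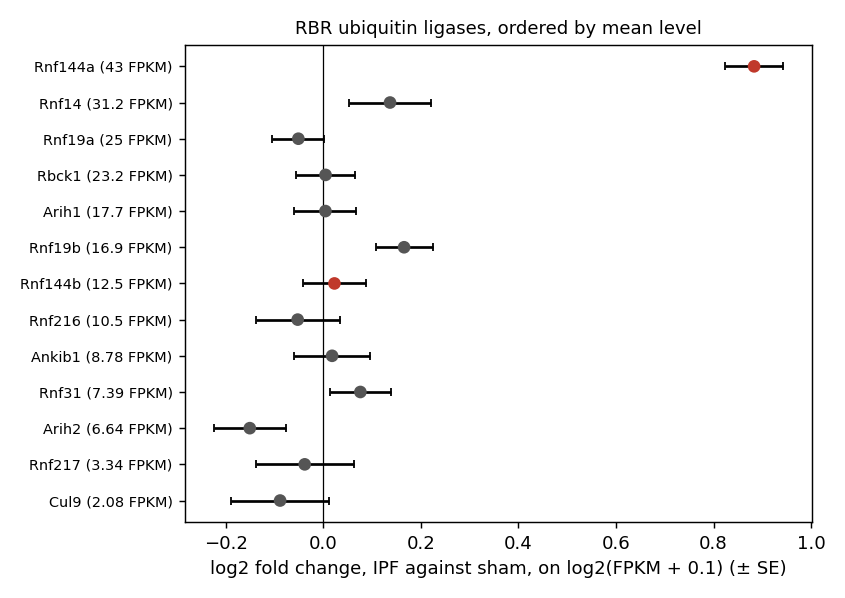
Log2 difference (IPF minus sham, on log2(FPKM + 0.1), horizontal axis) of 13 RBR ligases, ordered from the highest mean FPKM at the top, with bars of 1 SE and both RNF144 genes in red. Rnf144a lies at 0.88 and the other 12 lie between -0.15 and 0.17.

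E2 enzymes and described substrates of both ligases numbered 11, and 1 of them was called higher, Cdkn1a, which encodes p21, at a background of 3.71% of all genes. A count of 1 in so short a list says nothing about the list as a whole. Cdkn1a stood at 22.2, 21.8, 27.7, 23.7 and 32.8 FPKM in IPF replicates 1 to 5. In sham replicates 1 to 5 it stood at 18.4, 18.3, 19.1, 16.3 and 15.9 FPKM. Every IPF lung lay above every sham lung. Its log2 difference was 0.53 with an SE of 0.11 and an adjusted p of 0.018 by limma. The median of the 11 was 0.09, with 9 positive and 2 negative. The E2 enzyme Ube2l3 stood at 19.2 and 18.4 FPKM and Prkdc, which encodes DNA-PKcs, at 2.28 and 2.49 FPKM in IPF and sham, with adjusted p of 0.613 and 0.585. Parp1 stood at 10.0 and 9.69 FPKM with an adjusted p of 0.760. Bax stood at 28.2 and 27.8 FPKM with an adjusted p of 0.904. STING is listed under its older symbol Tmem173, at 7.59 ± 1.51 and 6.22 ± 0.874 FPKM, with an adjusted p of 0.359. The lowest of the list was Trp73, a relative of p53, at -0.29 with an adjusted p of 0.609.

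Of 28 listed p53 target genes, 5 were called higher and 2 lower, with a median log2 difference of 0.04, where 3.71% and 2.14% of all genes were called higher and lower. The highest difference of the list, 0.92 for the secreted factor gene Gdf15, was not called (adjusted p of 0.163). The highest called was Tnfrsf10b, a death receptor, at 2.02 ± 0.177 FPKM in IPF and 1.28 ± 0.109 FPKM in sham, a log2 difference of 0.62 with an adjusted p of 0.00589. Gadd45a, a stress-response gene, differed by 0.52 with an adjusted p of 0.0313, and lost its call in 10 of 19 alternatives, the replicate block among them, with an adjusted p up to 0.0833. Bbc3, which encodes the death factor PUMA, differed by 0.46 with an adjusted p of 0.0203, and lost its call in 4 alternatives that each left out 1 lung (IPF replicate 1 or 2, sham replicate 1 or 3), with an adjusted p up to 0.0574. Xpc, a damage sensor of nucleotide excision repair, differed by 0.34 with an adjusted p of 0.0142. The fifth was Cdkn1a, given above. Trp53inp1 fell from 31.0 ± 3.47 to 18.9 ± 4.49 FPKM, with an adjusted p of 0.00991. Sesn2, a stress-induced inhibitor of mTORC1, fell from 8.20 ± 0.455 to 6.16 ± 0.578 FPKM with an adjusted p of 0.00883. Members of the list thus moved both ways.

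Within 500 kb of Rnf144a the table lists 15 genes, of which 9 were at 0 in all lungs and 3 were tested. Limma called 1 of the 3, Cmpk2, higher, at a background of 3.71% of all genes. Also tested was Rsad2. Cmpk2 and Rsad2 are a pair of interferon-stimulated genes that lie upstream of Rnf144a. Cmpk2 encodes a nucleotide kinase of mitochondria, and Rsad2 encodes viperin, an antiviral enzyme. Their starts lie at -53.95 and -41.2 kb from that of Rnf144a, negative being upstream. Cmpk2 stood at 11.5, 12.3, 11.2, 10.7 and 14.7 FPKM in IPF replicates 1 to 5, and at 6.51, 6.62, 8.02, 7.98 and 7.09 FPKM in sham. Its groups did not overlap, and the log2 difference of 0.73 (SE 0.10) had an adjusted p of 0.00189 by limma. Rsad2 stood at 1.64, 1.98, 1.94, 1.75 and 3.65 FPKM in IPF replicates 1 to 5, and at 0.980, 1.27, 1.09, 1.07 and 1.56 FPKM in sham. Its groups did not overlap either, but the log2 difference of 0.78 (SE 0.21) had an adjusted p of 0.0524. Over the alternatives that p ran from 0.0208 to 0.121. IPF replicate 5 held the highest Cmpk2 and Rsad2 and the lowest Rnf144a of its group.

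The third tested neighbour was Mir6538, which lies inside Rnf144a and had at most 3 reads in a lung. An antisense gene, 4930549C15Rik, also overlaps Rnf144a and had from 0 to 5 reads in an IPF lung and from 0 to 1 in a sham lung. Whether reads were counted by strand is not given in the sources used here, so reads of overlapping genes may be shared. Around Rnf144b the table lists 22 genes, 9 at 0 in all lungs and 12 tested, and limma called 0 of them, where 3.71% of all genes were called higher and 2.14% lower. At an unadjusted p under 0.05 there were 3, and limma-voom called 0. The nearest start with more than 1 FPKM was that of Dek, which encodes a chromatin protein, at -16.5 kb and with a log2 difference of -0.02. The highest log2 difference was that of Gm24620, a small nucleolar RNA gene, at 2.18 with an adjusted p of 0.121, from at most 5 reads in a lung. Without sham replicate 3 it was called, with an adjusted p of 0.0455. The lowest was that of 1700026N04Rik at -0.69 with an adjusted p of 0.423, from at most 4 reads.

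**Figure D3:**
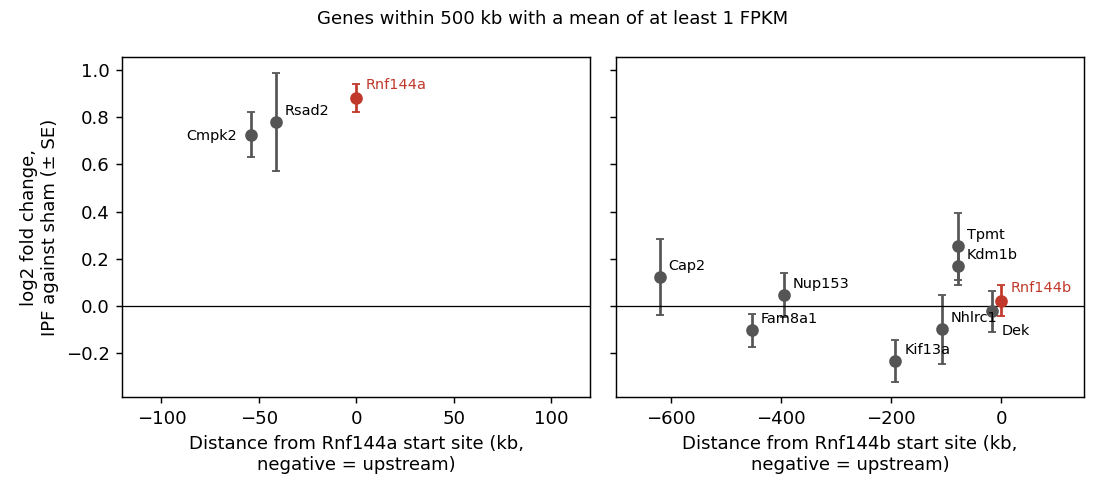
Log2 difference (IPF minus sham, vertical axis, bars of 1 SE) of genes with a mean of at least 1 FPKM within 500 kb of Rnf144a (left) and Rnf144b (right), against the distance between start sites in kb, negative upstream. Cmpk2 (0.73) and Rsad2 (0.78) lie near Rnf144a (0.88), and the neighbours of Rnf144b lie between -0.23 and 0.25.

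Interferon-stimulated genes as a list were higher in IPF. Of 26 genes, 17 were called higher, all 26 had a positive difference, and the median log2 difference was 0.72, where 3.71% of all genes were called higher and 2.14% lower. The list was drawn up with earlier results of these samples known and is no independent evidence of its direction. Called genes ran from Ifi27l2a at 1.83, Oas2 at 1.26 and Isg15 at 1.26 down to Xaf1 at 0.45, Stat2 at 0.32 and Ddx58 at 0.31, with adjusted p from 0.00373 to 0.0343 for these 6. Of 19 alternatives Xaf1 lost its call in 11, Stat2 in 8 and Ddx58 in 7, with adjusted p up to 0.0812, 0.0751 and 0.0834, while Ifi27l2a, Oas2 and Isg15 lost it in 0. Without IPF replicate 2, IPF replicate 4 or sham replicate 2, 11 of the 26 were called.

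Rnf144a and the interferon list were both higher in IPF, but did not go together from lung to lung inside the groups. Over the 10 lungs the r of Rnf144a with the 26 genes ran from 0.24 to 0.90, all positive. After each group's mean was removed, 24 of the 26 had a negative r, with a median of -0.57. Rtp4 had -0.79 and Rsad2 had -0.74. This turn rested in part on IPF replicate 5. Without it 18 of 26 were negative, with a median of -0.16, and Cmpk2 went from -0.40 to 0.21. These are descriptions over 10 and 9 lungs from the same libraries. Rnf144a varied little in sham, with a coefficient of variation of 2.66% against 7.84% in IPF. These r therefore rest mainly on the IPF lungs, as does every r of Rnf144a given below after group means were removed.

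Genes most like Rnf144a were sought among 12983 autosomal genes with a mean of at least 1 FPKM, by Pearson r on log2(FPKM + 0.1) over the 10 lungs. All points share the split between the groups, so a gene that separates them widely against its own spread scores high. In all, 228 genes had r above 0.9 and 126 had r below -0.9. The first was Adm, which encodes the vasodilator peptide adrenomedullin, with r of 0.995 and rho of 0.95. Adm stood at 16.1, 12.9, 13.7, 12.9 and 11.2 FPKM in IPF replicates 1 to 5, and at 2.29, 2.17, 2.50, 2.56 and 1.86 FPKM in sham. Inside IPF, replicate 1 was highest and replicate 5 lowest in both genes. Adm was chosen by its r over these same lungs, so this order is part of the choice and no separate support. After group means were removed r was 0.79, and without IPF replicate 5 it was 0.70. With group means removed over the 10 lungs, Adm was not among the first 10 genes, which ran from 0.98 for Gm26917 to 0.89 for Ier5l. Within IPF the r of Adm was 0.95, and within sham it was 0.64.

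The next most alike were Arntl (r 0.990), Fam189a2 (0.987), St6galnac3 (0.985), Npas2 (0.984), Il18r1 (0.981), Nfil3 (0.980), Bmp3 (0.979), Litaf (0.979) and Fam210b (0.977). The first gene left out, Fam43a, had r of 0.976. Arntl and Npas2 encode partner transcription factors of the circadian clock, and Nfil3 encodes a repressor that binds the D-box. Il18r1 encodes a receptor chain for interleukin 18, Bmp3 a secreted factor of the BMP family and St6galnac3 a sialyltransferase. After group means were removed their r lay between 0.34 for St6galnac3 and 0.71 for Npas2. Within the sham lungs alone their r ran from -0.63 for Fam189a2 to 0.74 for Nfil3. Sizes differed widely. Litaf went from 11.7 to 17.9 FPKM and Fam189a2 from 39.2 to 65.7 FPKM, log2 differences of 0.61 and 0.74 near that of Rnf144a. Arntl went from 0.366 to 5.84 FPKM, a log2 difference of 3.63.

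The most opposite gene was Mthfd1l, a mitochondrial enzyme of folate metabolism, with r of -0.994. It stood at 1.21, 1.30, 1.26, 1.44 and 1.57 FPKM in IPF replicates 1 to 5, and at 4.49, 4.12, 5.06, 4.71 and 4.63 FPKM in sham. Inside IPF it ran in the exact reverse order of Rnf144a, which is again part of the choice. After group means were removed r was -0.78, and -0.60 without IPF replicate 5. Within IPF r was -0.99, and within sham it was -0.14. Next came Dbp (-0.990), Nr1d1 (-0.984), Usp2 (-0.976) and Wee1 (-0.975). Within the sham lungs alone their r ran from -0.43 for Dbp to 0.75 for Usp2. Dbp and Nr1d1 encode clock output and clock repressor transcription factors, Usp2 a deubiquitinating enzyme and Wee1 a kinase that holds back mitosis.

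**Figure D4:**
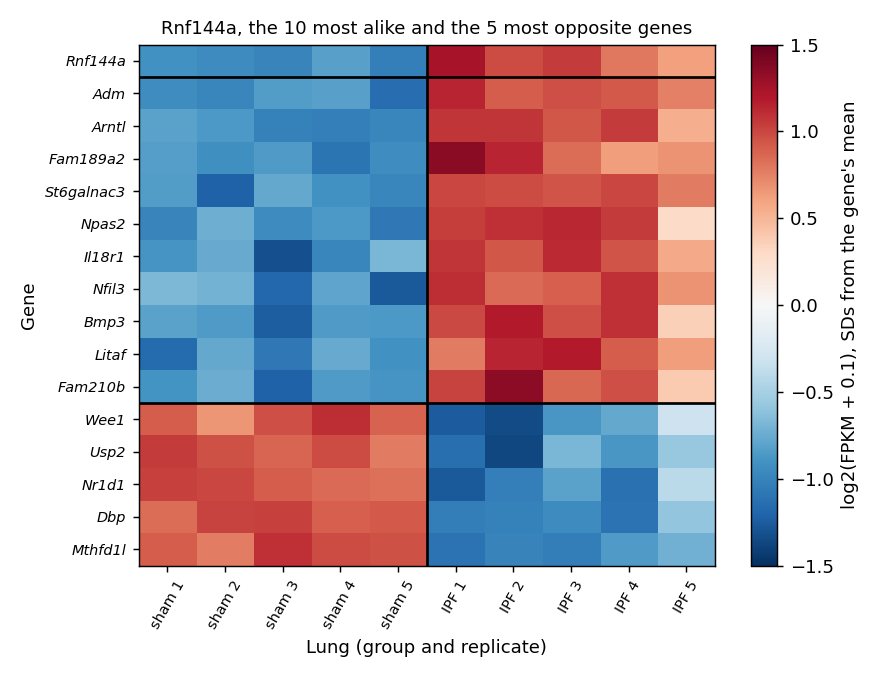
Log2(FPKM + 0.1) of Rnf144a (top row), the 10 genes with the highest and the 5 with the lowest r with it (rows) in each lung (columns), as SDs from each gene's own mean, red high and blue low. Every row changes sign between sham and IPF, and IPF replicate 5 is paler than the other IPF lungs in Npas2 (1.29 FPKM) and Nr1d1 (4.28 FPKM).

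Other measures divided the same lungs just as sharply. Of 18 circadian clock genes, 5 were called higher and 12 lower in IPF, against 3.71% and 2.14% of all genes. Dbp had a mean of 2.26 FPKM in IPF and 26.4 FPKM in sham, and Nr1d1 had 2.08 and 36.3 FPKM. Xist, which is transcribed from the inactive X chromosome, ran from 26.8 to 43.2 FPKM in IPF and from 0.0301 to 0.0767 FPKM in sham. Ddx3y, a Y-linked gene, was at 0 in every IPF lung and ran from 14.3 to 21.4 FPKM in sham. By these genes every IPF lung reads as female and every sham lung as male. The methods say that pups of both sexes were used, and the labels give neither sex nor hour of collection. The r of Rnf144a over the 10 lungs was 0.99 with Xist and -0.98 with Ddx3y. Flow, the sex-linked genes and the clock genes divide the lungs in the same way, so their parts in the level of Rnf144a cannot be told apart.

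Inside the groups, the relation of Rnf144a to clock genes changed with IPF replicate 5. After group means were removed r was 0.63 with Arntl, 0.71 with Npas2, -0.61 with Dbp and -0.65 with Nr1d1. Without that lung the same r were 0.02, 0.19, 0.10 and -0.14. Others grew or turned sign without it, as Bhlhe40 from -0.10 to -0.81, Cry2 from -0.09 to 0.60 and Tef from -0.56 to 0.54. Of the 18 clock genes, 13 had a negative r, and 5 did without IPF replicate 5. With Xist the r was 0.55, where IPF replicates 1 and 2 stood at 43.2 and 43.1 FPKM and the other IPF lungs between 26.8 and 30.5 FPKM.

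Some marker lists of lung cell types also differed, and others did not. In bulk tissue, a change in the number of cells of a type and a change in RNA per cell cannot be told apart. Of all genes, 3.71% were called higher and 2.14% lower. All 7 B cell markers were called higher in IPF, with a summed level of 35.6 to 53.4 FPKM against 19.2 to 31.1 FPKM in sham. NK cell markers were called higher in 3 of 6, with sums of 10.8 to 17.2 against 3.71 to 9.04 FPKM. T cell markers were called higher in 2 of 11, with sums of 35.8 to 44.7 against 22.7 to 34.9 FPKM. Endothelial markers were called higher in 1 of 8, with sums of 1357 to 1541 against 1192 to 1274 FPKM. The endothelial sums were carried by Cldn5, a tight junction gene and the 1 called marker, since without it the other 7 summed to 908 to 1093 FPKM in IPF and 894 to 954 FPKM in sham, which overlap. Fibroblast markers were called higher in 2 of 7, with sums of 1213 to 1544 against 870 to 1439 FPKM, which overlap. Neutrophil, alveolar macrophage, alveolar type 1 and 2, smooth muscle, ciliated, secretory and cardiac muscle lists had 0 of 53 tested genes called by limma, with 10 at an unadjusted p under 0.05 and 2 called by limma-voom. No marker was at 0 in all lungs, and the alveolar type 2 markers, which define lung, summed to at least 12805 FPKM in each lung.

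Of these lists, the alveolar macrophage sum had the strongest relation to Rnf144a inside the groups, with r of -0.82, and -0.80 without IPF replicate 5. That sum is weighted to its most abundant markers, Chil3 (mean of 231 FPKM) and Ear2 (76.2 FPKM), where Marco had 6.68 FPKM. Its r therefore describes mainly Chil3 and Ear2, and single macrophage markers were not tested. Neutrophils had r of -0.63, and -0.27 without IPF replicate 5, whose neutrophil sum was 300.9 FPKM where the other IPF lungs had 52.9 to 74.2 FPKM. For B cells r was 0.28, for T cells -0.06, for NK cells -0.09 and for endothelium -0.46, and without that lung they were -0.24, -0.08, -0.40 and 0.03. Alveolar type 1 markers went from 0.11 to 0.65 and cardiac muscle markers from -0.28 to -0.68 without that lung. Cardiac genes stood high in single lungs, as Myl7 at 63.9 FPKM in IPF replicate 4 and 55.2 FPKM in sham replicate 3. In the other lungs Myl7 was at most 2.85 FPKM. For the other 5 lists r lay between -0.33 and 0.43 with IPF replicate 5 and between -0.24 and 0.30 without it. The part of any cell type in the level of Rnf144a was not tested.

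**Figure D5:**
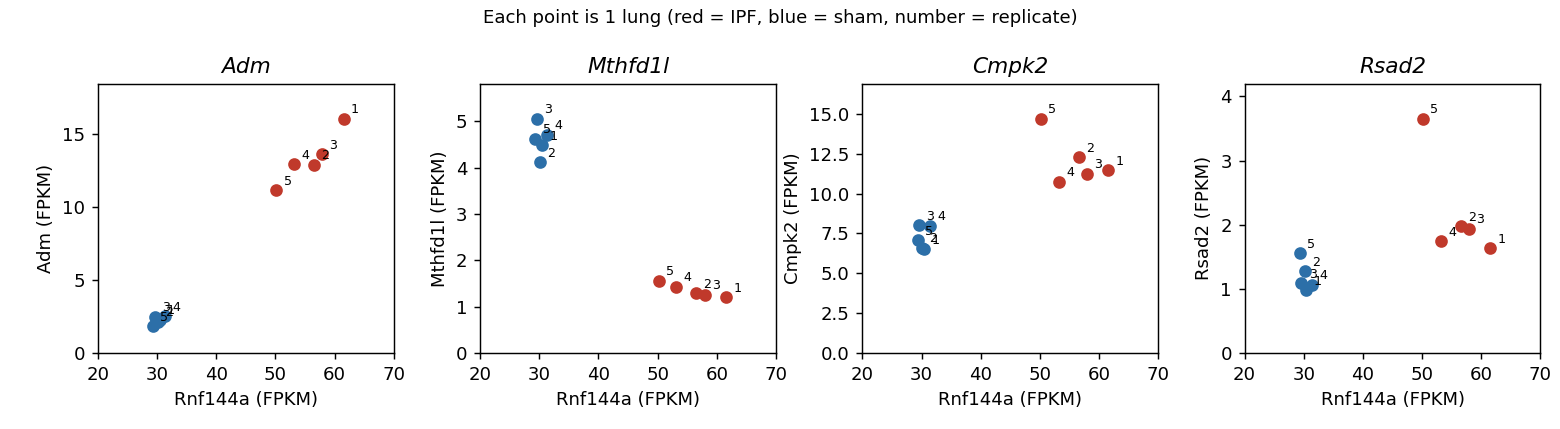
Level in FPKM of Adm, Mthfd1l, Cmpk2 and Rsad2 (vertical axes, from 0) against Rnf144a in FPKM (horizontal axes, which start at 20) in each lung, numbered by replicate, IPF red and sham blue. Among the IPF lungs Adm is mostly higher and Mthfd1l lower where Rnf144a is higher, and both were chosen by their r over these lungs. IPF replicate 5, at 50.2 FPKM of Rnf144a, is highest in Cmpk2 (14.7 FPKM) and Rsad2 (3.65 FPKM) among the IPF lungs.

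Genes most like Rnf144b were sought in the same way among 12983 genes. They are the extremes of a search over 10 lungs, and whether their r exceeds what such a search gives by itself was not tested. The most alike over the 10 lungs was Rsl1, a zinc finger repressor gene, with r of 0.864, followed by Zfp317 (0.845), Cacnb2 (0.840), Zfp105 (0.824), Kdelc2 (0.823), Epha3 (0.818), Rwdd4a (0.811), Tmem80 (0.796), Slc6a4 (0.795) and Prmt3 (0.795). The first left out, Gm43039, had 0.795 as well. Cacnb2 encodes a calcium channel subunit, Epha3 an ephrin receptor and Slc6a4 the serotonin transporter. The most opposite were Clp1, an RNA kinase gene (-0.910), Tmem116 (-0.901), Slc3a2, a subunit of amino acid transporters (-0.887), Desi1 (-0.874) and Vps37d (-0.874). No gene had r above 0.9 and 2 had r below -0.9. All 15 overlapped between the groups, and removing group means left r at 0.79 to 0.88 for the alike and -0.88 to -0.91 for the opposite genes. The 10 alike genes depended on single lungs, since 0 of them stayed among the first 10 without IPF replicate 2 or without IPF replicate 3. None was among the genes named as like Rnf144a.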

How the data were processed

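Whole-lung RNA of 5 IPF and 5 sham samples was measured by paired-end RNA-seq. Per the study's methods, the authors used Fastp for trimming, HISAT2 for alignment, StringTie for gene levels and DESeq2 for testing. The deposited values are FPKM per gene, with each gene's length as an other column. Methods name build GRCm39, whereas the submitters' processing notes list Bowtie 0.12.2 and the builds GRCm38, mm10 and hg38. The last gene of chromosome 1 ends at 195323493, which is past where GRCm39 ends that chromosome, so coordinates are given as GRCm38. The library kit is named as KAPA in the methods and as NEBNext in the labels.

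FPKM times gene length gave whole reads in every lung, within 0.01 read, with totals of 15483046 to 19026843. limma 3.58.1 (R 4.3.3), with an empirical Bayes variance trend, was run on log2(FPKM + 0.1) for 20448 genes with a mean of at least 0.1 FPKM. Because the values are FPKM, a count test was not the main test. Benjamini-Hochberg adjustment ran over all those genes, and genes were called at an adjusted p under 0.05. Of the RBR ligases, 1 is counted with the rest but its own values are not reported here. The code was tested on simulated data. Intervals from counts cover counting error only.

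Members and lists were chosen with earlier results of these data known. Named were both members, the called, first and last genes of the RBR, E2 and substrate, and neighbour lists (within 500 kb), the 3 highest and 3 lowest called p53 and interferon genes, 10 alike and 5 opposite genes by r, and 6 sex-linked or clock genes. Other named substrates, E2 enzymes and ligases, and Dek, Bbc3, Gdf15, Rtp4, Cldn5, Nr1d2, Tef, Bhlhe40, Cry2, S100a8, S100a9, Cxcr2 and Gm22960 were chosen after their values were seen. Alternatives changed the pseudocount, the filter, the scaling, the variance trend, the replicate block, the use of recovered reads and each left-out lung.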

Additional observations from a re-analysis of the deposited data

Results flagged for a closer look

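Single lungs stood far from the other 4 of their group in 19 of 188 groups, over 94 genes tested for this. Chance alone flags about 1 in 20 groups, but some of these genes were chosen after their values were seen, so the number of flags cannot be set against that rate. Neither Rnf144a nor Rnf144b was among them.

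IPF replicate 5 accounted for 12 of the 19. Over all 192 listed genes tested, the same measure set IPF replicate 5 apart in 17, IPF replicate 3 in 12 and each other lung in at most 7. IPF replicate 5 had 3.65 FPKM of Rsad2, where the other IPF lungs had 1.64 to 1.98. It had 1.29 FPKM of Npas2, where the others had 3.56 to 4.03, and 3.49 FPKM of Dbp, where the others had 1.74 to 2.17. St6galnac3 was at 3.23 FPKM in it and at 3.38 to 3.44 in the others. Further clock genes were Nr1d2, at 17.3 FPKM against 2.79 to 4.58, and Tef, at 39.1 FPKM against 15.8 to 19.8. Of neutrophil genes, S100a8 was at 78.9 FPKM against 14.3 to 20.4, S100a9 at 185 FPKM against 29.3 to 41.2 and Cxcr2 at 6.14 FPKM against 1.01 to 1.85. Ifi27l2a was at 102 FPKM against 45.7 to 53.2, Rtp4 at 33.8 FPKM against 19.2 to 22.5 and Trp53inp1 at 26.8 FPKM against 15.7 to 18.3.

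Among the RBR ligases, Rnf19b was at 19.7 FPKM in IPF replicate 4 and at 17.2 to 17.7 in the other IPF lungs. Rnf216 was at 12.2 FPKM in sham replicate 1 and at 10.0 to 10.4 in the other sham lungs. Trp73 was at 1.40 FPKM in IPF replicate 3 and at 0.456 to 0.511 in the others. Bmp3 was at 9.95 FPKM in sham replicate 3, under the 11.5 to 11.8 of the other sham lungs. Zfp317 was at 5.57 FPKM in sham replicate 4, under the 6.44 to 6.72 of the others. Gm22960, beside Rnf144b, was at 0.565 FPKM in IPF replicate 1 and 1.75 FPKM in sham replicate 1, and at 0 in the other lungs.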

How the results depend on the processing

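The log2 difference of Rnf144a ran from 0.86 to 0.89 over 9 alternative settings and from 0.85 to 0.92 over 10 left-out lungs. That of Rnf144b stayed between 0.01 and 0.02 over the 9 settings and ran from -0.015 to 0.047 over the left-out lungs, turning sign without IPF replicate 2 (-0.015) and without sham replicate 4 (-0.00508), with adjusted p from 0.759 to 0.980 throughout. Called RBR ligases stayed at 0 and called E2 enzymes and substrates at 1 in all 19. Called p53 targets ran from 6 to 7 over the settings and from 5 to 10 over left-out lungs, and interferon genes from 12 to 20 and from 11 to 18. Called neighbours were 2 with limma-voom on recovered reads, with a mean of at least 1 FPKM and with the replicate block, the second being Rsad2, and 1 to 2 over left-out lungs, where the second was Gm24620 without sham replicate 3 and Rsad2 without IPF or sham replicate 5.

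Of the 10 genes most like Rnf144a, 1 stayed by Spearman rho, 0 with group means removed, and 4 (without IPF replicate 5) to 9 over left-out lungs. For Rnf144b, 5 and 3 stayed, and 0 to 6 over left-out lungs. The cause of these changes was not tested.

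Same-numbered lungs did not deviate together (r from -0.02 to 0.095 across genes), so the replicate numbers do not pair them. With the replicate block, 660 genes were called higher and 385 lower, against 759 and 437. Relations inside groups without IPF replicate 5 (18 of 26 interferon genes negative) and the endothelial sum without Cldn5 were added after seeing the data.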
